A study of Mus musculus with 6 samples.

Results

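The nuclear genes for the subunits of the mitochondrial respiratory chain and the ATP synthase were examined in left ventricles of mice that lack Akt2, an insulin-activated protein kinase. The genes were chosen by symbol, by a rule that uses no measured value, though earlier results of these data were known. Names starting with Nduf (assembly factors named Ndufaf left out), Uqcr, Cox4, Cox5, Cox6, Cox7, Cox8 or Atp5 were taken. Sdha, Sdhb, Sdhc, Sdhd, Cyc1 and Cycs were added. Together these came to 84 genes on 174 probe sets, out of 18193 genes and 45101 probe sets on the array. Each gene was read from its brightest probe set, and 82 of the 84 passed the filter on dim signals that left 11075 genes in all. The 2 that did not pass were Cox7b2, with signals between 46.9 and 121.6, and Ndufb4, with signals between 51.4 and 158.9. Probe sets of Ndufb4 that also name other genes were not used, so whether its transcript was low is not known.

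The series holds 3 samples with the label akt2-/- and 3 wild type samples, one Affymetrix array each. All came from male mice of strain C57BL/6 aged 12 to 16 weeks, and the disrupted Akt2 allele had been crossed into that strain for more than 7 generations. The labels name no promoter or Cre that would limit the disruption to one cell type. Whether the samples of a genotype are separate animals is not stated, so the spread behind each p-value may be technical. Values are MAS5 signals, compared as log2(signal + 21.7), the added 21.7 being the 20th percentile of the table. In bulk tissue, fewer cells of a type and less RNA per cell cannot be told apart.

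The respiratory chain passes electrons from NADH and succinate to oxygen and pumps protons across the inner mitochondrial membrane, and the ATP synthase uses the proton gradient to make ATP. Complex I oxidises NADH, complex II oxidises succinate, complex III passes electrons from ubiquinol to cytochrome c, complex IV reduces oxygen, and complex V is the ATP synthase. The heart is among the tissues richest in these complexes because contraction draws its ATP almost entirely from them. Most subunits are encoded in the nucleus, and NRF1, GABP, the ERR receptors, YY1 and CREB are transcription factors known to act at their promoters.

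The promoters of the genes are shown here as background, and a link between them and the differences between arrays was not tested. RefSeq promoter windows of assembly GRCm38.p6, from 250 bases before to 50 after the gene start, matched 68 of the 84 genes. The NRF1 letters GCGCATGCG, searched on both strands, were found in 8 of the 68 genes (11.8%) and in 1.95% of all 27025 genes with a window. A gene was counted if any of its windows held the letters. AAGATGGCG, for YY1, was in 6 genes (8.82%, against 1.64%), CCGGAAGT, for GABP and other ETS factors, in 5 (7.35%, against 4.31%), and TGACCTTG, for ERR, and TGACGTCA, for CREB, in 4 each (5.88%, against 1.76% and 2.03%). The 5 windows that follow hold the NRF1 letters, 5′ to 3′ on the minus strand and upstream of the start, with the matches in capitals. Where the capitals run 1 letter longer than the motif, the letters occur on both strands and overlap. The Cycs window also holds the CREB letters, which come first and begin 169 bases before the start.
Cycs, chr6:50566610-50566750: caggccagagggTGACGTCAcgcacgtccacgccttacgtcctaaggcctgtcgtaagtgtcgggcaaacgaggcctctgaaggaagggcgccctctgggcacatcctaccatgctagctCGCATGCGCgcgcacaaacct
Atp5g2, chr15:102671068-102671101: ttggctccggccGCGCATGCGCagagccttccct
Atp5k, chr5:108434428-108434461: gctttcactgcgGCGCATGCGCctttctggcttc
Cox6a1, chr5:115349099-115349132: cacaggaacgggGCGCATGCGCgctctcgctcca
Ndufa8, chr2:36049339-36049359: cgtcgctggagaCGCATGCGC
A match is a stretch of letters and not a shown binding site. The 8 genes with the NRF1 letters had a median knockout minus wild type difference of log2 -0.28 for pair 1 and 0.11 for replicates 2 and 3. The 58 tested genes with a window and without these letters had -0.35 and 0.10.

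By their control probe sets, wild type 1 and knockout 1 were unlike the other 4 arrays. The term batch is used here for this split, which no label records. Bacterial poly-A spike-in probe sets had a median signal of 56.2 in wild type 1 and 59.6 in knockout 1 against 532.3 to 945.5 elsewhere, and 18S rRNA probe sets 82330 and 57275 against 152.7 to 446.7. The median over the array was 167.2 and 134.3 in these 2 arrays against 88.4 to 91.2. The 3′ to 5′ signal ratio, a sign of RNA quality, was 1.61 and 1.67 against 1.34 to 1.48 for the Actb control and 0.90 and 0.81 against 0.73 to 0.74 for the Gapdh control. Akt2 itself had signals of 2363, 2561 and 2505 in wild type 1, 2 and 3 and of 478, 395 and 255 in the knockouts, log2 -2.69 (SE 0.24), with a limma adjusted p of 0.0638, between 0.000849 and 0.854 over the alternatives. The disrupted region is not given in the labels, so the probe set's position relative to it is unknown. The ventricular markers Myh6, Tnnt2, Tnni3, Actc1, Myl2, Myl3, Pln and Ryr2 all passed the filter, and none of 3 testis markers did.

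Respiratory chain transcripts did not differ detectably between the genotypes over all 6 arrays. With limma and Benjamini-Hochberg adjustment over the 11075 genes, 0 of 82 passed an adjusted p of 0.05, and the share of all genes that passed was also 0%. The count at an unadjusted p under 0.05 was 0 of 82, and 240 of all genes. The median difference, knockout minus wild type, was log2 -0.05 over the 82 genes, with 61 lower and 21 higher, and 0.01 over all genes. After median centring of the arrays the median over the 82 was 0.04 with 58 higher, and after quantile normalization it was 0.01 with 49 higher, so the direction was not kept. The moderated SE of a single gene ran from 0.15 to 0.44 with a median of 0.22, and 79 of the 82 differences were smaller than their SE. For 73 genes the 95% interval lay within log2 1 in both directions.

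All 3 knockout arrays lay above all 3 wild type arrays for 1 of the 82 genes, Ndufa4l2, against 3.9% of all genes. None lay below in all 3, against 3.56%. Ndufa4l2 is a paralogue of Ndufa4, which is counted with complex I here by its symbol and is now placed in complex IV. It had signals of 757, 781 and 490 in wild type and of 977, 787 and 784 in the knockout. The highest wild type and the lowest knockout signals were almost level. Its difference was log2 0.34 (SE 0.23) with a limma adjusted p of 0.999937, the lowest unadjusted p of the 82 at 0.178.

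The small difference over 6 arrays joined opposite differences in the 2 batches. In the replicate 1 pair 76 of 82 genes had a lower signal in the knockout, with a median of log2 -0.34 against 0.01 over all genes. In replicates 2 and 3 the knockout signal was higher for 74 of 82, with a median of 0.10 against 0.00 over all genes (0.00299). The same 2 values were -0.07 and 0.10 after median centring, with 50 lower and 74 higher, and -0.02 and 0.01 after quantile normalization, with 43 lower and 48 higher. Median centring shifted all genes of the replicate 1 pair by log2 0.28, to a median of 0.29, so relative to all genes the 82 stayed at -0.36 there. For 70 genes the knockout was lower in pair 1 and higher in the mean of replicates 2 and 3, and for 57 it was lower in pair 1 and higher in pairs 2 and 3 alike. Pairs join arrays of the same number, and whether the numbers mark true pairs is not known. Pair 2 had a median of 0.17 (76 higher) and pair 3 of 0.04 (61 higher). Over all 11075 genes these medians were 0.00 (-0.000459, 5525 higher) and 0.01 (5750 higher). The shares of all genes with the patterns of these 70 and 57 genes were not counted.

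**Figure D1:**
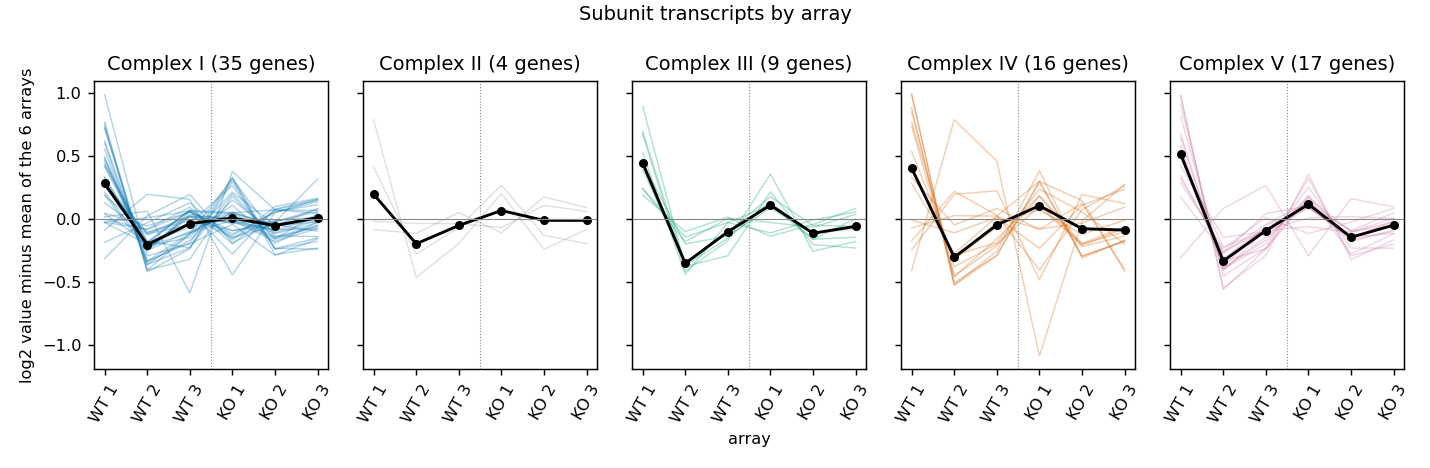
Each coloured line is 1 gene, plotted as its log2 value on each array (WT, wild type; KO, knockout) minus its mean over the 6 arrays, by complex. Black points are the median of the complex; wild type 1 is the highest point and wild type 2 the lowest in all 5 panels, on the signals as deposited.

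Wild type replicate 1 held the highest signal of the 6 arrays for 64 of the 82 genes, and wild type replicate 2 the lowest for 62. Both counts are for the signals as deposited, and the shares over all genes were not counted. The median signal over the genes was 51413 in wild type 1, 30675 in wild type 2, 34762 in wild type 3, 39891 in knockout 1, 35058 in knockout 2 and 37178 in knockout 3. The wild type arrays thus spanned the knockout arrays. Without wild type 1, the median difference was log2 0.14 and 70 genes were higher in the knockout; without any other single array it ran from -0.19 to 0.00 (0.000406), the latter without knockout 2. Without wild type 1 the replicate 1 batch holds only a knockout array, so what changes then can also come from the batch.

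Whether the genotype difference itself differed between the batches was tested with a genotype by batch interaction in limma, which had 2 residual degrees of freedom and 1 array per genotype in the replicate 1 batch. None of the 82 genes passed an adjusted p of 0.05, against 0.569% of all genes. At an unadjusted p under 0.05 there were 24 of 82 and 2274 of 11075. The median interaction, pair 1 minus replicates 2 and 3, was log2 -0.41 over the 82, with 78 below 0, and 0.00 (0.00282) over all genes. After median centring it was -0.14 with 61 below 0, and after quantile normalization -0.04 with 49 below 0. With a trended, robust variance estimate 9 of the 82 passed, against 551 of all genes. These 9 were Ndufb7, Ndufa3, Ndufa13, Cyc1, Cox5b, Cox6b1, Cox6c, Cox8b and Atp5g1, at a lowest limma adjusted p of 0.0111. Over all alternatives of this test the lowest limma adjusted p of a member ran up to 0.156.

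The genes with the lowest interaction p were Ndufb7, Cyc1, Ndufa13 and Cox6b1. Ndufb7, an accessory subunit of complex I, had signals of 54525, 22447 and 24039 in wild type 1, 2 and 3 and of 26731, 22531 and 24678 in the knockouts. Only wild type 1 stood out in this probe set, at over 2 times every other array. Its interaction was log2 -1.05 (SE 0.20) with a limma adjusted p of 0.0962, and it was -0.77 after median centring and -0.55 after quantile normalization. The second Ndufb7 probe set had 22777, 18468 and 21714 against 18284, 18897 and 20892, with -0.32 for pair 1 where the brightest had -1.03. Ndufa13, an accessory subunit also known as GRIM-19, had 85845, 37995 and 40356 against 57059, 44958 and 48537, an interaction of -0.84, which was -0.57 after median centring and -0.23 after quantile normalization. Here both replicate 1 arrays were above the other 4, and within replicates 2 and 3 both knockouts were above both wild types.

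Replicates 2 and 3 on their own gave no limma call either, with 0 of 82 genes and 0% of all genes past the threshold. At an unadjusted p under 0.05 there was 1 of 82, Cox4i2, and 1090 of all genes. Both knockouts lay above both wild types for 20 of 82 genes, against 22.3% of all genes, and below for 4 of 82, against 20.9%. The share above was thus close to that of all genes, and the share below was smaller. The 4 were Cox4i2, Cox7a2l, Ndufa2 and Ndufb1, and the same 4 were the ones lower in the knockout in all 3 pairs. Ndufa4l2 and Ndufb6 were higher in all 3. How many of all genes kept the same direction in all 3 pairs was not counted.

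In the replicate 1 pair, a single array per genotype with no replicate check, 13 of 82 genes were at least 1.5-fold lower in the knockout, against 9.76% of all genes. None was at least 1.5-fold higher, against 11.1% of all genes. These counts depended on the scaling. After median centring and after quantile normalization 1 gene, Ndufb7, was at least 1.5-fold lower. Cox7c and Ndufa4l2 were at least 1.5-fold higher after median centring, and Cox7c after quantile normalization. The shares of all genes under these 2 scalings were not counted. Median centring put the median of all genes in this pair at log2 0.29. On the deposited scaling the 13 were Ndufa3, Ndufa13, Ndufb7, Sdhb, Cyc1, Cox4i2, Cox5b, Cox6b1, Cox6c, Cox8b, Atp5g1, Atp5g3 and Atp5h. Those with a higher signal in the knockout by any amount, also on the deposited scaling, were Atp5mpl, Cox7c, Ndufa4l2, Ndufb6, Ndufc2 and Ndufs8.

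**Figure D2:**
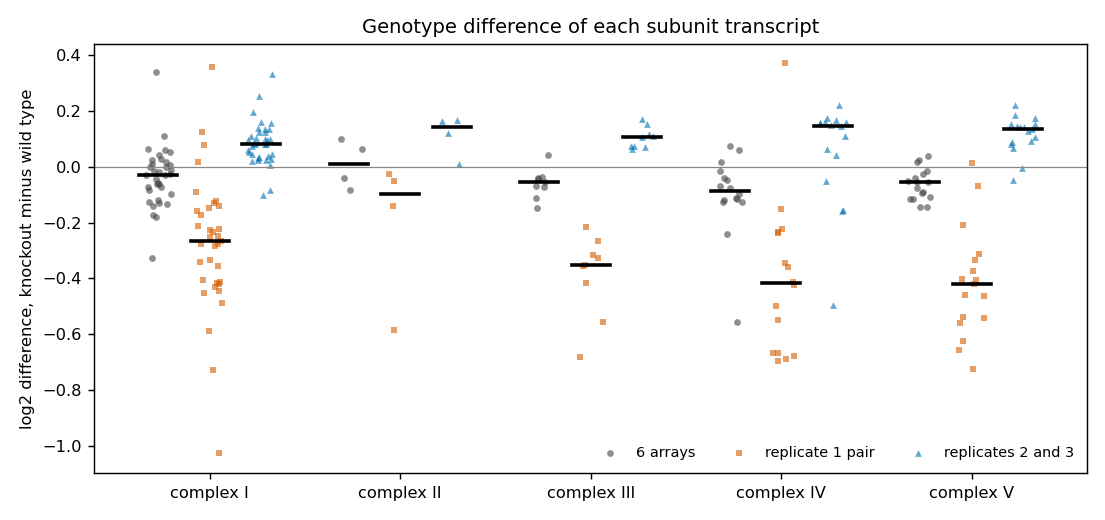
Points are genes, with the log2 difference of knockout minus wild type over 6 arrays (circles), for pair 1 (squares) and for replicates 2 and 3 (triangles), and black bars are medians. On the deposited scaling the medians lie below 0 for pair 1 and above 0 for replicates 2 and 3 in every complex; for pair 1, those of complexes I and II lie above 0 after median centring and that of complex II after quantile normalization, which also puts complex V at 0 and, for replicates 2 and 3, complex IV just below 0.

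The medians of the complexes lay further apart in the replicate 1 pair than in replicates 2 and 3. The median difference of the replicate 1 pair was log2 -0.27 in complex I (31 of 35 lower), -0.10 in complex II (4 of 4), -0.35 in complex III (9 of 9), -0.42 in complex IV (15 of 16) and -0.42 in complex V (16 of 17). After median centring these were 0.01, 0.18, -0.08, -0.14 and -0.14, and after quantile normalization 0.00 (-0.00346), 0.09, -0.07, -0.06 and 0. In replicates 2 and 3 the medians were 0.08, 0.14, 0.11, 0.15 and 0.14, and under quantile normalization 0.02, 0.07, 0.03, 0.00 (-0.00303) and 0.00 (0.00325). The differences between complexes were not tested.

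Complex I was measured through 35 tested subunits. Of these, 6 belong to its catalytic core, which carries the flavin and the iron-sulfur clusters, namely Ndufs1, Ndufs3, Ndufs7, Ndufs8, Ndufv1 and Ndufv2. Their median was log2 -0.18 for pair 1 and 0.12 for replicates 2 and 3, against -0.28 and 0.08 for the other 29; after median centring the core stood at 0.09 in the replicate 1 pair. Ndufs1, the largest core subunit, had 28721, 20030.3 and 21055 in wild type and 27007, 22560 and 21779 in the knockout. Ndufv1, which binds NADH, had 39477, 20940 and 22985 against 33575, 24523 and 24433. In both genes the replicate 1 arrays of both genotypes were the highest, and the genotype differences over 6 arrays were 0.04 (SE 0.20) and 0.03 (SE 0.28). In a second Ndufv1 probe set the knockout was the higher one of pair 1, 27373 against 25786. For Ndufs8 the probe sets disagreed. In the brightest, both replicate 1 arrays (33107 and 36058) were below wild type 2 and 3 (41893 and 47051) and knockout 2 and 3 (40403 and 51224). In the next 4 by brightness wild type 1 was the highest array, at 42616, 36986, 28255 and 14658, and pair 1 differed by -0.37, -0.27, -0.63 and -0.22. Ndufb1, a small accessory subunit, was lower in the knockout in every pair, at 947, 1159 and 1126 in wild type and 736, 1046 and 1111 in the knockout, yet its difference of -0.17 (SE 0.21) was smaller than its SE.

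Complex II, which is also an enzyme of the tricarboxylic acid cycle, has 4 subunits, all of them nuclear and all tested. Sdhb, the iron-sulfur subunit, had 93688, 39345 and 47366 in wild type and 62437, 45866 and 51266 in the knockout. Sdha, the flavoprotein, had 34029, 21093 and 24448 against 30831, 23386 and 22349. In both, the replicate 1 arrays were the highest of their genotype. The membrane anchors did not share this in their brightest probe sets. Sdhc had 15225, 14902 and 16722 against 14953, 18230 and 17180, and Sdhd 17721, 17515 and 17495 against 17114, 19348 and 18698. In the dimmer Sdhd probe set the replicate 1 arrays were the highest of their genotype, with 1406, 1121 and 1193 against 1580, 1316 and 1152. In the dimmer tested Sdhc probe set they were the lowest, with 2276, 7167 and 7781 against 2545, 7240 and 6689. Over 6 arrays the differences of the 4 brightest probe sets lay between log2 -0.08 (Sdhb, SE 0.34) and 0.10 (Sdhc, SE 0.16).

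Complex III and cytochrome c were brightest in wild type 1. Cyc1, the cytochrome c1 subunit, had 82484, 34177 and 36223 in wild type and 51462, 38524 and 37806 in the knockout, with an interaction of log2 -0.80 (limma adjusted p 0.126), which was -0.52 after median centring and -0.17 after quantile normalization. Uqcrfs1, the Rieske iron-sulfur protein, had 60552, 28978 and 33625 against 41200, 33451 and 33818. Uqcrc1, a core protein, had 46810.4, 27909.6 and 33192 against 40288, 34391 and 34209.9. All 3 had both replicate 1 arrays above the other 4. Cycs, the mobile electron carrier, had 84073, 45089 and 57669.6 against 80646, 52457 and 53464, with the replicate 1 arrays the highest and log2 -0.06 apart. That pair difference was 0.22 after median centring and 0.33 after quantile normalization, and the next 2 Cycs probe sets gave -0.37 and 0.15. Uqcrq, a small subunit among the 3 of complex III with the lowest p, differed by -0.07 (SE 0.16).

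Complex IV holds the tissue-specific isoforms, and its 16 genes ran from log2 -0.56 to 0.07 over 6 arrays. Cox4i2, an isoform of the regulatory subunit 4 that is typical of lung, had 237, 571 and 450 in wild type and 140, 318 and 394 in the knockout. Each knockout array was below the wild type array of its number, while knockout 2 and 3 were above wild type 1. The difference was log2 -0.56 (SE 0.44) over 6 arrays, -0.68 for pair 1 and -0.49 for replicates 2 and 3, and it stayed between -0.46 and -0.56 under the 3 scalings. It did not pass in any fit: the limma adjusted p was 0.586 with the batch as a block and 0.767 with the replicate number as a block. Cox6b1, the ubiquitous form of subunit 6b, had 146122, 51987 and 60380.2 against 90135, 60115 and 65167. Wild type 1 was the highest and knockout 1 the next, and the interaction of log2 -0.86 was -0.58 after median centring and 0.01 (0.00929) after quantile normalization. The second Cox6b1 probe set had -0.48 for pair 1, where the brightest had -0.70. Cox6b2, its testis form, was dim at 119 to 211. Cox7a2l had 8217, 11158 and 11382 against 6969, 11147 and 10608. Its replicate 1 arrays were the lowest.

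**Figure D3:**
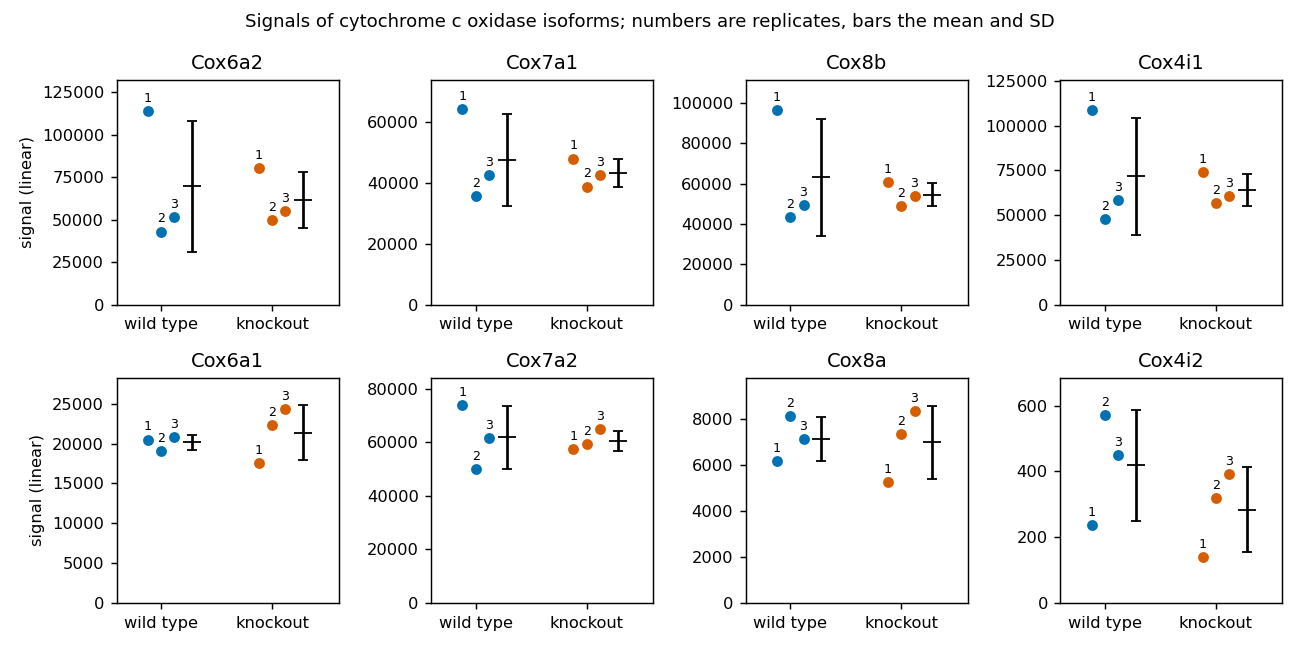
Linear signals of the brightest probe sets of 8 cytochrome c oxidase genes on each array, with the mean and SD of each genotype beside the points (n = 3) and the replicate number above each point. The upper row holds the muscle forms Cox6a2, Cox7a1 and Cox8b and the ubiquitous Cox4i1, all highest in wild type 1; the lower row holds their alternative forms, each axis having its own scale.

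Striated muscle carries its own forms of subunits 6a, 7a and 8, and these were compared with the widely expressed forms within each array. Cox6a2, the muscle form, had 114122, 43048 and 51806 in wild type and 80645, 49907 and 54989.5 in the knockout. Cox6a1, the widely expressed form, had 20504, 19119.7 and 20809.6 against 17568, 22266 and 24298. In these probe sets the muscle form was highest in both replicate 1 arrays and the other form was not. The second Cox6a2 probe set did not share this, with 46785, 38563 and 48279 against 46189, 47339 and 48556. The log2 ratio of Cox6a2 to Cox6a1 was lower by 0.14 in the knockout (log2 -0.14, exact two-sided permutation test over the arrays, p = 0.6). The ratio of Cox7a1 to Cox7a2 differed by -0.08 (exact p = 0.5) and that of Cox8b to Cox8a by -0.08 (exact p = 0.8). Cox4i2 to Cox4i1 differed by -0.48 (exact p = 0.5), Cox6b2 to Cox6b1 by -0.12 (exact p = 0.9) and Ndufa4l2 to Ndufa4 by 0.47 (exact p = 0.3). Within batches, Cox8b to Cox8a differed by -0.44 for pair 1 and 0.10 for replicates 2 and 3, and Cox6a2 to Cox6a1 by -0.28 and -0.07. Cox4i2 to Cox4i1 differed by -0.13 and -0.65, and Ndufa4l2 to Ndufa4 by 0.80 and 0.31. Taken by replicate number, the ratios of Cox7a1 to Cox7a2 (-0.06, -0.12 and -0.07), Cox6a2 to Cox6a1 (-0.28, -0.01 and -0.14) and Cox4i2 to Cox4i1 (-0.13, -1.06 and -0.24) were lower in the knockout in 3 of 3 pairs, and the other 5 ratios were not of one sign. The permutation test does not use the pairs. With 3 against 3 arrays it cannot go below 0.1, and over the 8 ratios each adjusted p was 1.

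Complex V had 16 of 17 genes lower in the knockout of pair 1 and 15 of 17 higher in replicates 2 and 3. The 5 genes of the F1 head and stalk, Atp5a1, Atp5b, Atp5c1, Atp5d and Atp5e, were all lower in the knockout of pair 1 and all higher in that of replicates 2 and 3; quantile normalization left 1 of 5 lower and 3 of 5 higher. Atp5a1, the alpha subunit, had 75685, 36934 and 43137 in wild type and 55030.1, 43215 and 45217 in the knockout. Atp5b, the catalytic beta subunit, had 103817, 44808 and 51551 against 70414, 50351 and 50296, or 66725 ± 32299 (SD, n = 3) against 57020.5 ± 11599 (SD, n = 3). The SD of the wild type was larger than the difference of the means. Atp5g1, Atp5g2 and Atp5g3 encode the same c-ring protein with different import sequences. Atp5g1 had 103853, 40441 and 47129 against 62819.9, 45623 and 51016, and Atp5g3 117976, 40613 and 50874 against 74845, 48902 and 52197. Atp5g2 had a narrower span, 29236, 19710.2 and 20364 against 23166, 19776 and 20137. The ratio of Atp5g1 to Atp5g3 differed by log2 -0.03 between genotypes (exact permutation p = 0.8) and that of Atp5g2 to Atp5g3 by 0.00 (0.00156, exact p = 1). Atp5l, subunit g of the membrane part, had a difference of -0.11 (SE 0.22). Atp5mpl was an exception in this complex, with both replicate 1 arrays, 16133 and 16299, below the other 4, at 21136 to 23996.

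The replicate 1 arrays were compared with the other 4 in limma with genotype as a covariate. Of the 82 genes 25 were higher there at an adjusted p under 0.05, against 18.9% of all genes, and 4 were lower, against 15.1%. By complex the higher calls were 8 of 35 in complex I, 2 of 4 in complex II, 3 of 9 in complex III, 6 of 16 in complex IV, 5 of 17 in complex V, and Cycs. The median of the 82 was log2 0.37 higher, against 0.06 over all genes. Atp5h, subunit d of the ATP synthase stalk, had the largest such difference at 1.00 (limma adjusted p 0.019), with 125018 and 81116 in the replicate 1 arrays against 43391 to 56584. In the second Atp5h probe set they were 65733 and 51345 against 46504 to 52373. The 4 lower genes were Atp5mpl, Cox4i2, Cox7a2l and Ndufb1. These directions depended on the scaling. After median centring 0 of 82 were called higher and 29 lower, with a median of -0.25. Of all genes 281 were called higher and 6015 lower under that scaling. After quantile normalization 7 of the 82 were called higher and 9 lower, with a median of -0.01. The counts over all genes were then 1555 higher and 1875 lower.

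**Figure D4:**
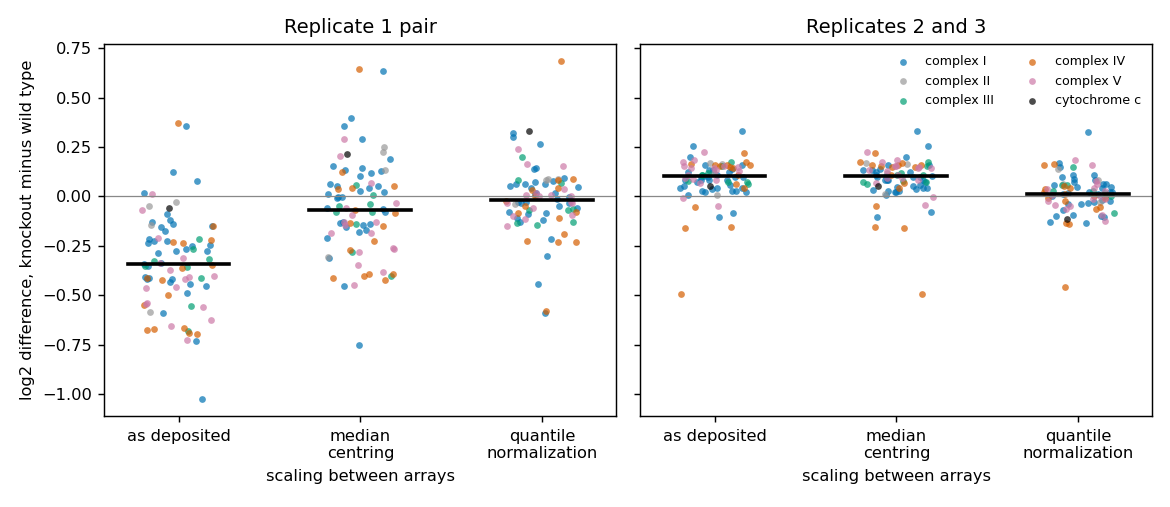
Points are the 82 genes, coloured by complex, with the log2 difference of knockout minus wild type in the replicate 1 pair (left) and in replicates 2 and 3 (right) under 3 ways to scale the arrays; black bars are medians. In the replicate 1 pair the median moves from -0.34 to -0.07 and -0.02, and in replicates 2 and 3 it is 0.10, 0.10 and 0.01.

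These probe sets sit at the bright end of the arrays. The mean signal was above 10000 for 74 of the 82, against 426 of all 11075 genes (3.85%), and between 68 and 71 of the 82 were above the 99th percentile of each array. Signals of different probe sets are not levels relative to each other. The 5 genes with a mean under 1000 were Cox4i2, Cox6b2, Cox7c, Cox8c and Ndufa4l2. Among these, the brighter of 2 Cox7c probe sets ranged from 158 to 273. Quantile normalization gives all arrays the same values at each rank, so it removes by construction any difference that the whole bright end shares. Across the 82 genes, the replicate 1 pair difference was more negative where the mean signal of wild type 2 and 3 was higher (Pearson's r -0.33, Spearman's rho -0.44, a description across genes on shared arrays). Over all 11075 genes these were 0.05 and 0.11.

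By summed signal, ventricular cardiomyocyte and smooth muscle markers were high on the replicate 1 arrays, atrial markers were not, and several other lists were low there. By the median marker, the atrial list was higher there too. The summed signal of the 8 ventricular markers was 1168920 in wild type 1, against 374202 and 479693 in wild type 2 and 3, and 716014 in knockout 1, against 453550 and 500436 in knockout 2 and 3. Their median difference was log2 -0.66 for pair 1 and 0.17 for replicates 2 and 3. Atrial cardiomyocyte markers, all 4 past the filter, summed to 16125 and 16345 in the replicate 1 arrays against 15006 to 19949 in the others, and smooth muscle markers, 3 of 4 past it, to 9801 and 8676 against 5138 to 6222. Skeletal muscle markers, 2 of 7 of them past the filter, summed to 1328 in wild type 1 and to 311 to 499 elsewhere. Fibroblast markers, all 5 past the filter, summed to 24349 and 22302 in the replicate 1 arrays and to 44592 to 49708 in the others, and macrophage markers, all 4 past it, to 12840.1 and 9110.1 against 13068 to 17436. Endothelial markers, all 5 past it, summed to 6896 and 6069 against 7998 to 9499, and erythrocyte markers, 1 of 2 past it, to 744 and 746 against 1238 to 2252. Adipocyte markers, 1 of 5 past it, lay between 2107 and 2582.5 on all arrays. No marker of any list was at 0. The part of these cell types, of RNA quality, of the batch and of the signal distribution in the respiratory chain differences was not tested.

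Genes that build or regulate the chain did not pass the limma threshold in any list, and none had an unadjusted p under 0.05. Median centring would move every 6-array difference up alike, with the median of all genes going from 0.01 to 0.11. Of 15 complex I assembly factors 7 were higher and 8 lower in the knockout (median log2 -0.02); Ndufaf8 differed by -0.20 (SE 0.17). Of 9 factors for complexes II and III 6 were higher (median 0.05). Sdhaf3, a complex II assembly factor, had 1263, 2567 and 2498 in wild type and 1175, 1701 and 1817 in the knockout, a difference of -0.38 (SE 0.32). Both replicate 1 arrays were the lowest of their genotype. Of 21 complex IV factors 14 were higher (median 0.02), with Cox18, which inserts a core subunit into the membrane, at -0.27 (SE 0.19). Of 4 ATP synthase factors 3 were higher (median 0.07). Tmem70, which helps assemble the c ring, had 5863, 6723 and 7212 against 6817, 8101 and 9582, 0.30 (SE 0.19), higher in the knockout in each pair.

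Of 12 genes of coenzyme Q synthesis 5 were higher and 7 lower (median log2 -0.02), and of 13 genes of the tricarboxylic acid cycle 8 were higher and 5 lower (median 0.02). Of 18 regulators of mitochondrial genes 13 were higher and 5 lower, with a median of 0.14, with 0.17 for pair 1 and 0.08 for replicates 2 and 3. Esrrb, an ERR receptor, had 521, 320.3 and 343 in wild type and 544, 451 and 475 in the knockout, 0.32 (SE 0.22). Ppargc1a, the coactivator PGC-1 alpha, chosen after its values were seen, had 2196, 2765 and 3327 against 2368, 4047 and 3606, 0.26 (SE 0.26). Both were higher in the knockout in each pair, and neither passed. Of the transcripts of the mitochondrial genome one was read, the complex I core subunit ND5, with 244587, 58322 and 76821 against 118965, 66966 and 75535, which is -0.29 (SE 0.54) over 6 arrays and -1.04 in the replicate 1 pair. After median centring ND5 stood at -0.20 and -0.76, and after quantile normalization at -0.03 and 0.

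Several probe sets were tested for 47 of the 82 genes. Of the 76 probe sets beside the brightest, 54 had the same sign of the 6-array difference and 22 the opposite sign, and 58 were lower in the knockout in the replicate 1 pair. None of the member probe sets had an unadjusted p under 0.05 in limma. For 17 genes the brightest probe set was of a type that can read several transcripts of a family, so signals of close paralogues or pseudogenes cannot be told apart there.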

How the data were processed

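The 3 akt2-/- and 3 wild type left ventricle samples each have 1 array, hybridised with biotin-labelled cRNA per the labels' protocols. The deposited values are intensities, 1 linear signal per probe set and array, made by the authors with MAS5 per the submitters' processing notes, with no version named. The mean signal without the highest and lowest 2% was 500.003 to 500.004 on all arrays, and this scaling was kept. No depth exists for arrays; their number limits the precision.

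The 64 control probe sets were set aside, and 22519 probe sets with a mean log2 value of at least 6.868, the median, were kept. Names came from the platform annotation: 34945 have 1 symbol, 932 several (left out) and 9160 none. R 4.3.3 with limma 3.58.1 was used for tests (lmFit, then eBayes, no covariate, Benjamini-Hochberg over 11075 genes, threshold 0.05), and the tests were checked on simulated data. For the genotype test the simulated arrays held no batch difference, unlike these arrays. Their spread was the one left after genotype, batch and interaction were fitted. The planted changes were larger than any difference of a member, so the check does not show whether differences of the members' size could be found. Isoform ratios used exact permutation tests. Alternatives were pseudocounts, filters, scalings, variance estimates, blocks, probe set choice and leaving out arrays.

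Sample titles carry a number from 1 to 3 within each genotype. After subtraction of the genotype mean, arrays of the same number correlated with r of 0.61, 0.45 and 0.39. The replicate 1 arrays differed from the others in each genotype, and subtracting the genotype mean spreads this difference over all 3 numbers. No correlation between arrays of different numbers is given for comparison. The values therefore cannot show whether the numbers mark pairs, and arrays were paired by their number alone. Adding the number as a block moved the genes with an unadjusted p under 0.05 from 240 to 663 (1 of the 82 members) and the calls from 0 to 0.

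Genes named in the text are, by rule, those of lowest p in complexes I, III, IV and V and in the interaction, core subunits, complex II, cytochrome c, isoforms and up to 3 genes of each pathway list. Genes named in counts of few, and the groups within complexes I and V, were chosen with their values in view. Members and lists were all chosen with earlier results of these data known. Probe sets naming several genes, among them some of Ndufb4, Ndufs5 and Ndufs6, were not used here.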

Additional observations from a re-analysis of the deposited data

How the results depend on the processing

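No respiratory chain gene passed the adjusted threshold for genotype under any alternative run, the replicate block and the batch block included, and leaving out each array in turn gave 0 to 0 of the 82 genes, of their probe sets and of all genes. The lowest limma adjusted p of a member over these was 0.428, for Cox4i2 with the batch block and a trended, robust variance. Over all genes 1 gene passed with pseudocount 100, the stricter filter, the trended, robust variance or the batch block, and 5 with the last 2 together. Median differences did not change under the replicate block (-0.05 over all members), and it changed no call.

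For uncalled genes a change of sign was counted apart: of 82, 28 changed sign after quantile normalization, 37 after median centring, 55 in replicates 2 and 3 alone, 7 with the mean of all probe sets, and 9 to 55 without 1 array. Leaving out 1 array gave medians of -0.19 to 0.14 for all members, -0.13 to 0.09 for complex I, -0.07 to 0.12 for II, -0.19 to 0.21 for III, -0.29 to 0.15 for IV and -0.25 to 0.19 for V, the highest without wild type 1. Isoform ratio differences ran from -0.08 to 0.03 for Atp5g1 to Atp5g3, -0.28 to 0.21 for Atp5g2 to Atp5g3, -1.17 to 0.04 for Cox4i2 to Cox4i1, -0.48 to 0.27 for Cox6a2 to Cox6a1, -0.47 to 0.09 for Cox6b2 to Cox6b1, -0.20 to 0.02 for Cox7a1 to Cox7a2, -0.39 to 0.37 for Cox8b to Cox8a and 0.29 to 0.74 for Ndufa4l2 to Ndufa4.

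In the replicate 1 pair, quantile normalization gave medians of -0.0172 for all members, -0.00346 for complex I, 0.0850 for II, -0.0640 for IV and 0 for V, and median centring gave 0.00984 for I, 0.18 for II and -0.14 for V. The interaction called 63 genes; it called 96 with pseudocount 1, 0 with no filter, 5 with the stricter filter, 500 after quantile normalization, 271 after median centring and 551 with the trended, robust variance, which alone called members (9). For the replicate 1 arrays against the others, 3766 genes were called, 2205 with no filter and 6296 after median centring. Of the members 29 were called, 4 with no filter, 44 with the stricter filter, 16 after quantile normalization and 45 with the trended, robust variance. Those higher were 25, and 3, 39, 7 and 39 in the same order, and 0 after median centring. Those lower were 4, and 1 with no filter, 9 after quantile normalization and 29 after median centring. The cause of these shifts was not tested. Akt2, not past the threshold in the 6-array fit, passed with pseudocount 100, the stricter filter, the trended, robust variance and its combination with the batch block.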
